A study of Mus musculus with 12 samples.

Results

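Complement is a system of plasma and cell-bound proteins that tags microbes and debris for uptake, releases inflammatory peptides and builds a pore in membranes. The classical pathway opens with C1q, a molecule assembled from the chains encoded by *C1qa*, *C1qb* and *C1qc*, which macrophages make in large amounts. The alternative pathway amplifies the cleavage of C3 through factor B (*Cfb*), the catalytic part of its convertase, and properdin (*Cfp*), which stabilizes that convertase. The peptides released on cleavage are sensed by the receptors encoded by *C3ar1* and *C5ar1*, and the C1 inhibitor, encoded by *Serping1*, blocks the proteases of the C1 complex. These 8 genes and *C3* were chosen by symbol as the complement components and receptors of a macrophage, which made 9 genes. Each was taken where the platform annotation gave a probe set that symbol alone, and 8 of the 9 were measured, among 18193 measured genes in all. *C3* was not analysed here.

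The cells were bone marrow-derived macrophages (BMDMs), grown for 7 days with M-CSF from the marrow of female C57BL/6 mice. *ΔTrspM* mice (Trspfl/fl-LysM-Cre+/-) lose *Trsp*, the gene of the tRNA that inserts selenocysteine into selenoproteins, in cells where the lysozyme M promoter drives Cre, which is active in the myeloid lineage. Control mice (Trspfl/fl-LysM-Cre-/-) carried the same floxed alleles without Cre, so the groups also differ in the presence of Cre. The study asked how selenoprotein loss alters gene expression in resting and stimulated macrophages. LPS is the endotoxin of Gram-negative bacteria, and the cells were stimulated with it for 4 h or left unstimulated. There were 3 GeneChip Mouse 430 2.0 arrays each of LPS-stimulated *ΔTrspM*, unstimulated *ΔTrspM*, LPS-stimulated control and unstimulated control cells, 12 in all. The labels call the replicates biological without naming a mouse or culture for each, and the p-values therefore cover the spread between these arrays only, which may be technical. The age of the mice and the LPS dose of the array cultures are not given in the sources used here, and *Trsp* itself was not measured.

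Values below are log2 of the signal plus 16, after the arrays were brought to a common distribution. Each gene was compared with itself across groups, since the signal of one probe set cannot be set against that of another. Differences are log2 fold changes on that scale, tested with limma over all 18193 genes, with a threshold of 0.05 for the p-value adjusted by the Benjamini-Hochberg method. This fit does not pair arrays by replicate number, and values from a fit that does are named as such. Overlap of groups is described gene by gene, and its share over all genes was not counted. The mean deposited signal ranged from 199.7 to 861 over the arrays. LPS-stimulated *ΔTrspM* replicate 2 was dim, with 47.7% of probe sets under a signal of 16, against 16.1% to 28.8% on the other arrays. All 10 macrophage markers listed, among them *Csf1r* and *Adgre1*, were above 16 on every array, and all 10 genes of an LPS response list rose in both genotypes. In bulk RNA, fewer cells of a type and less RNA per cell cannot be told apart.

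The chains of C1q are encoded side by side on chromosome 4, in the order *C1qb*, *C1qc* and *C1qa* with no other protein-coding gene between them in RefSeq. The sequences before the start of *C1qb* and *C1qc* are shown because these neighbours encode parts of one molecule, and that of *C3ar1* because it fell after LPS and was lower on each LPS-stimulated array than on any unstimulated one. Each is 250 bases long and ends at the base before the gene start (RefSeq, GRCm38.p6, read on the strand of the gene, which is the minus strand for all 3). The windows are chr4:136886201-136886450 for *C1qb*, chr4:136892915-136893164 for *C1qc* and chr6:122856158-122856407 for *C3ar1*. Capitals mark matches on either strand to GAGGAA, a core bound by PU.1, the ETS factor of the macrophage lineage, and to TGANTCA, the site of AP-1.
C1qb: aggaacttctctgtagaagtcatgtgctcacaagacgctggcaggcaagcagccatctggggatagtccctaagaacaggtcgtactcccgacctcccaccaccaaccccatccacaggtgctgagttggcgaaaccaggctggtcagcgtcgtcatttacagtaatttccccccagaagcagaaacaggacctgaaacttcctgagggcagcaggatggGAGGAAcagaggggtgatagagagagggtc
C1qc: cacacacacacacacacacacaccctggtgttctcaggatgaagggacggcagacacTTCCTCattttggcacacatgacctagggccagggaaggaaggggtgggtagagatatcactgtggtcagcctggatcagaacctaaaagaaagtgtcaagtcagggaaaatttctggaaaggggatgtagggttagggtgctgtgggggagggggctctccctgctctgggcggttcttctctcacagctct
C3ar1: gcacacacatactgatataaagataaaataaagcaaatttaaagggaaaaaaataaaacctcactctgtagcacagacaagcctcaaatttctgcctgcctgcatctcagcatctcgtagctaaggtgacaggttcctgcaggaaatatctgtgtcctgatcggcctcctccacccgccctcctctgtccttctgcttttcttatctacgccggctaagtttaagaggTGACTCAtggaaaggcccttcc
Promoter windows were found for 6 of the 9 genes, *C3* among them, but not for *C1qa*, *Cfb* and *Serping1*. The PU.1 core lay 30 bases before the start of *C1qb* and, on the opposite strand, 193 bases before that of *C1qc*, and 23.1% of 27025 promoters of the same length held it. The AP-1 site of *C3ar1* began 22 bases before the start and matches TGANTCA on both strands, and 6.87% of the promoters held such a site. A match to the NF-κB consensus, searched on both strands, was 41 bases before the start of *C1qc* and was held by 3.75% of the promoters. The core of the interferon-stimulated response element was in 3.04% of the promoters and in none of the 6. These matches describe the letters in the windows, and binding was not measured.

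In *ΔTrspM* cells, 1 of the 8 genes rose after LPS and 0 fell by the adjusted p, where 7.29% of all genes rose and 8.51% fell. In control cells, 1 rose and 1 fell, where 7.09% of all genes rose and 8.54% fell. The gene that rose in both genotypes was *Cfb*, and the gene that fell in control cells was *C3ar1*. At an unadjusted limma p under 0.05, 3 of the 8 differed in each genotype. Among all 18193 genes, 5185 did so in *ΔTrspM* cells and 5115 in control cells, so many genes differed at that threshold. The median log2 fold change of the 8 was −0.09 in *ΔTrspM* cells and −0.25 in control cells, against −0.03 and −0.05 over all genes. Between genotypes, 0 of the 8 differed in either stimulus. The interaction, which asks whether the LPS response differed between genotypes, was past the threshold for 0 of the 8.

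*Cfb* showed by far the widest range of the 8 genes. Its log2 signal was 11.25, 11.44 and 10.73 on the LPS-stimulated *ΔTrspM* arrays, against 4.34, 5.85 and 4.78 on the unstimulated *ΔTrspM* arrays. The control arrays gave 11.32, 12.21 and 11.13 with LPS and 4.51, 8.42 and 6.13 without. The stimulated arrays lay above every unstimulated array, and the unstimulated control arrays were the most spread of the 4 groups. The log2 fold change was 6.15 in *ΔTrspM* cells (standard error 0.78, limma adjusted p = 0.00046) and 5.20 in control cells (standard error 0.78, adjusted p = 0.0012). In the deposited values, *Cfb* had signals of 1685, 622 and 1580 with LPS and 4, 33 and 17 without it in *ΔTrspM* cells. The control signals were 3627, 3633 and 2529 with LPS, against 8, 424 and 66 without. The lowest unstimulated signals are below the 16 that was added before the log, so the fold change understates the ratio of the signals.

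**Figure D1:**
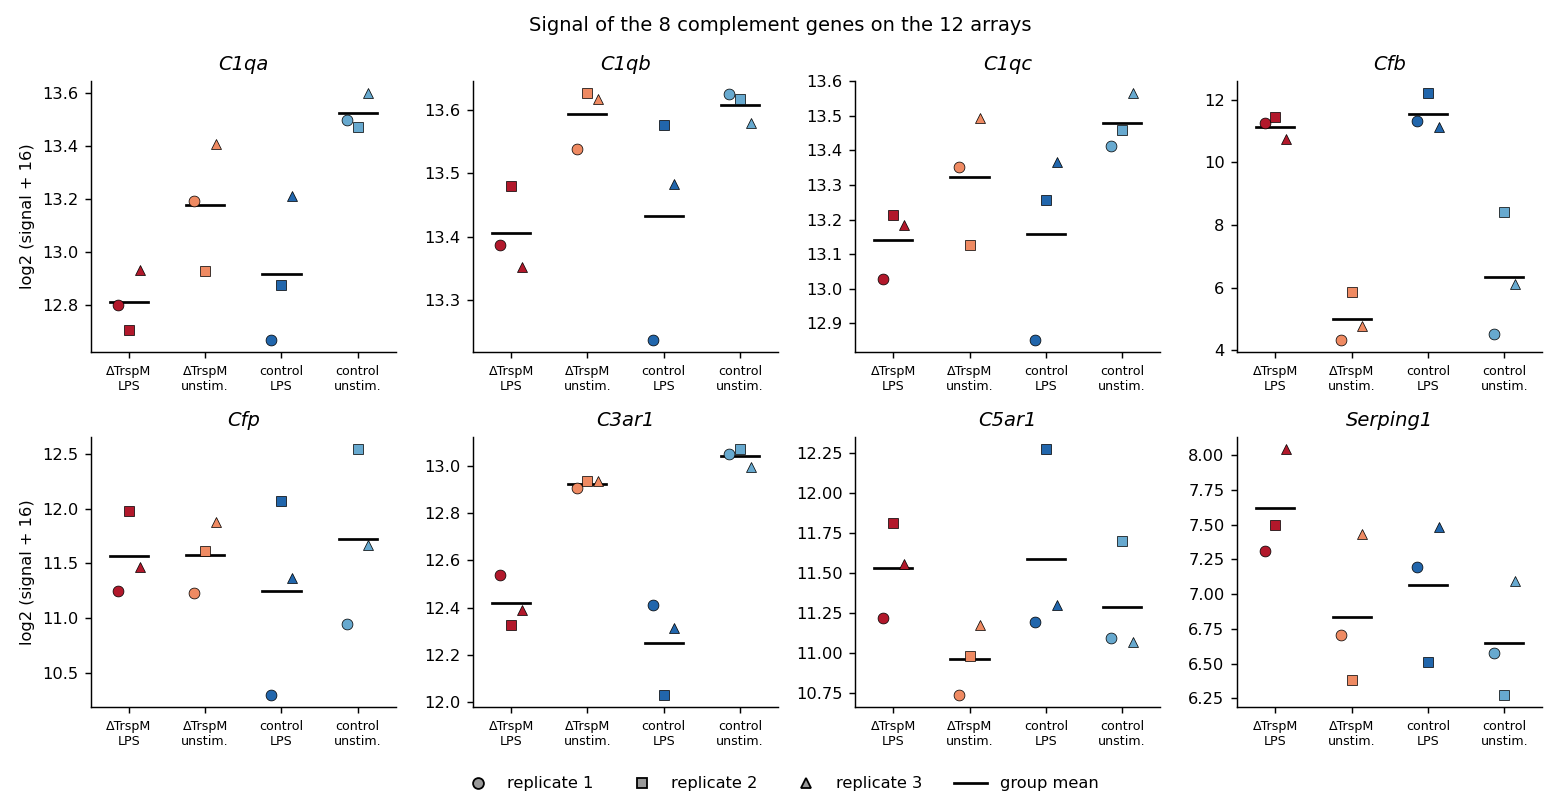
Log2 (signal + 16) of the 8 measured genes on the 12 arrays, 1 panel per gene with its own axis, with groups from left to right LPS-stimulated *ΔTrspM*, unstimulated *ΔTrspM*, LPS-stimulated control and unstimulated control (3 arrays each; symbols give the replicate, bars the group mean). *Cfb* ran from 4.34 to 12.21, while *C1qb* stayed between 13.24 and 13.63 on all arrays.

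Unstimulated control replicate 2, the array with the *Cfb* signal of 8.42, was also high for the genes of the LPS response list. The summed signal of these 10 genes, which include *Tnf*, *Il1b* and *Il6*, was 16675 on it, against 2993 and 2307 on the other unstimulated control arrays. It was 3705, 7724 and 3786 on the unstimulated *ΔTrspM* arrays, where replicate 2 again had the highest *Cfb* signal. Over the 12 arrays, *Cfb* and the mean of that list had a Pearson r of 0.97, with the LPS groups setting most of the range. Without unstimulated control replicate 2, the LPS response of *Cfb* in control cells was 6.24, and the genotype difference in unstimulated cells was −0.33, against −1.36 with it (standard error 0.78, limma adjusted p = 0.99986). The part of that array's state in the *Cfb* values was not tested. After LPS, *Cfb* differed between genotypes by −0.41 (95% interval −2.13 to 1.31, adjusted p = 0.98), and the groups overlapped.

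*Cfp* encodes the other alternative pathway protein measured, and its arrays spread more within groups than between them. Its log2 signal was 11.25, 11.98 and 11.47 on the LPS-stimulated *ΔTrspM* arrays and 11.23, 11.61 and 11.88 on the unstimulated *ΔTrspM* arrays. For control cells the values were 10.30, 12.07 and 11.37 with LPS, against 10.95, 12.54 and 11.67 without. Replicate 1 was the lowest of each group, and all groups overlapped. The LPS response was −0.01 in *ΔTrspM* cells (95% interval −1.04 to 1.03) and −0.47 in control cells (−1.51 to 0.56), and the genotype difference was 0.32 after LPS (−0.72 to 1.36) and −0.15 without it (−1.18 to 0.89). The dimmer probe set of *Cfp* gave values of other sign for the LPS response in control cells (0.31) and the genotype difference after LPS (−0.64, limma adjusted p = 0.87), and −0.34 and 0.01 for the response in *ΔTrspM* cells and the genotype difference without LPS. No difference of *Cfp* passed, and each of the 4 intervals includes 0 and reaches beyond 1 log2 unit on at least one side.

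*C3ar1*, the receptor for the peptide C3a, fell after LPS in control cells. Its log2 signal was 12.54, 12.33 and 12.39 on the LPS-stimulated *ΔTrspM* arrays, against 12.90, 12.94 and 12.93 on the unstimulated ones. The control arrays were at 12.41, 12.03 and 12.31 with LPS, against 13.05, 13.07 and 13.00 without. Every stimulated array was below every unstimulated array of either genotype. The log2 fold change was −0.79 in control cells (standard error 0.17, limma adjusted p = 0.0080) and −0.51 in *ΔTrspM* cells (standard error 0.17, adjusted p = 0.063), where it passed with the replicate number as a block (adjusted p = 0.043). The responses differed by 0.28 (95% interval −0.23 to 0.80, adjusted p = 0.999975 for the interaction), so a smaller fall in *ΔTrspM* cells was not shown. When each array was only divided to a common median, the fall in control cells was −0.39 (adjusted p = 0.31), and with no scaling it was −0.76 (adjusted p = 0.56).

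The gene has 3 probe sets, and the other 2 gave larger differences than the brightest one used above. In *ΔTrspM* cells the response was −0.90 for probe set 1419483_at (limma over all probe sets, adjusted p = 0.016) and −1.09 for 1442082_at (adjusted p = 0.0081), against −0.51 for 1419482_at (adjusted p = 0.11). For control cells these values were −1.10 (adjusted p = 0.0052), −1.20 (adjusted p = 0.0045) and −0.79 (adjusted p = 0.017). The direction was shared by all 3 in both genotypes. With the mean of the 3, the response in *ΔTrspM* cells was −0.83 (adjusted p = 0.0089).

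**Figure D2:**
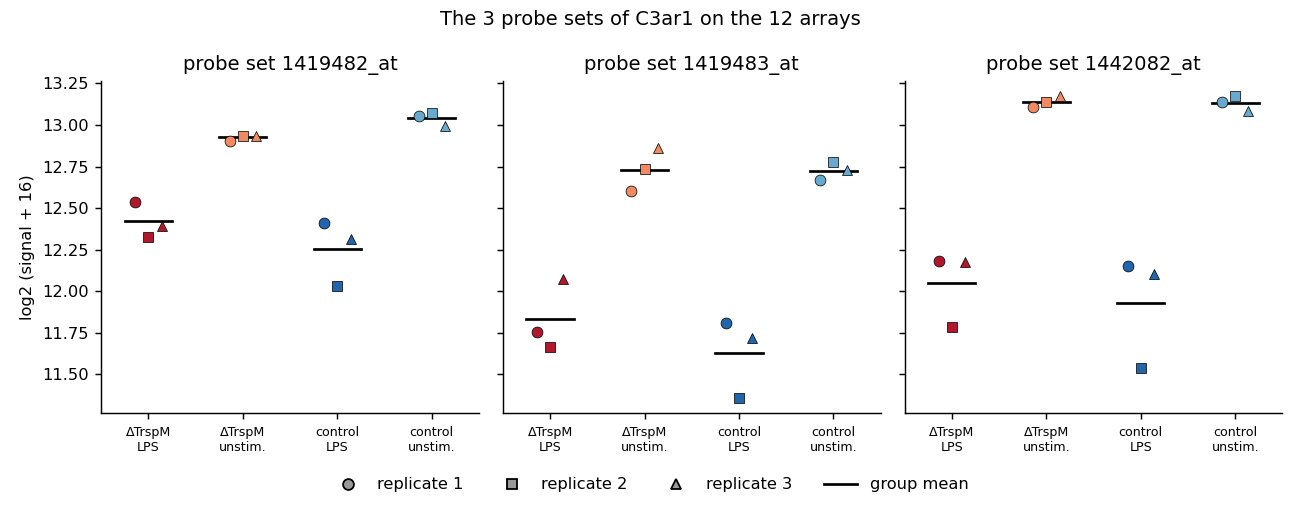
Log2 (signal + 16) of the 3 probe sets annotated to *C3ar1* on a shared vertical axis, for the same 4 groups in the same order (3 arrays each; symbols give the replicate, bars the group mean). On each probe set the stimulated arrays sit below the unstimulated arrays, with the widest gap on 1442082_at, where the response was −1.09 in *ΔTrspM* and −1.20 in control cells.

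*C5ar1* encodes the main receptor for C5a, which draws phagocytes to sites of complement activation. Its log2 signal was 11.21, 11.81 and 11.55 on the LPS-stimulated *ΔTrspM* arrays, all above the 10.73, 10.98 and 11.17 of the unstimulated ones. Among control arrays it was 11.19, 12.27 and 11.30 with LPS and 11.09, 11.70 and 11.07 without, with overlap. The LPS response was 0.56 in *ΔTrspM* cells (95% interval −0.12 to 1.24, limma adjusted p = 0.27) and 0.30 in control cells (−0.38 to 0.98, adjusted p = 0.58), and with no scaling the first was −0.44, where the median over all genes was −0.73. Its second probe set gave 0.22 and 0.01, with overlap of the arrays in both genotypes.

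The chains of C1q showed small LPS responses, none of which passed in the fit used throughout. *C1qa* had a log2 signal of 12.80, 12.70 and 12.93 on the LPS-stimulated *ΔTrspM* arrays, against 13.19, 12.93 and 13.41 on the unstimulated ones. It was 12.67, 12.87 and 13.21 on the LPS-stimulated control arrays, against 13.50, 13.47 and 13.60 on the unstimulated ones, a group that lay above every other array. The LPS response of *C1qa* was −0.37 in *ΔTrspM* cells (standard error 0.20, limma adjusted p = 0.26) and −0.61 in control cells (standard error 0.20, adjusted p = 0.063), and in control cells it passed with the replicate number as a block (adjusted p = 0.026). Without a block it passed there with trend and robust options (adjusted p = 0.012), a pseudocount of 64 (0.026) and a filter at a mean log2 signal of 6 (0.030), and without LPS-stimulated control replicate 3 (0.039). In unstimulated cells *C1qa* differed between genotypes by −0.35 (95% interval −0.78 to 0.09, adjusted p = 0.99986), with no overlap of the arrays.

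*C1qc* was at 13.03, 13.21 and 13.18 on the LPS-stimulated *ΔTrspM* arrays and at 13.35, 13.13 and 13.49 on the unstimulated ones. The control arrays were at 12.85, 13.26 and 13.37 with LPS, all below the 13.41, 13.46 and 13.57 without. *C1qb* was at 13.39, 13.48 and 13.35 on the LPS-stimulated *ΔTrspM* arrays, against 13.54, 13.63 and 13.62 on the unstimulated ones. In control cells *C1qb* was at 13.24, 13.58 and 13.48 with LPS, against 13.62, 13.62 and 13.58 without. On this brightest probe set of *C1qb*, the stimulated and unstimulated arrays did not overlap in either genotype. The gap in control cells was narrow, with a highest stimulated value of 13.576 and a lowest unstimulated value of 13.580. On probe set 1437726_x_at the arrays overlapped in both genotypes, and on 1434366_x_at in neither. The LPS response of *C1qb* was −0.19 in *ΔTrspM* and −0.17 in control cells, that of *C1qc* −0.18 and −0.32, none passed (limma adjusted p = 0.31 to 0.59), and with median scaling all 4 values were positive, at 0.14 to 0.43. The 3 probe sets of *C1qb* ranged from −0.32 to −0.05 over both genotypes.

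Across the 12 arrays, *C1qa* and *C1qc* had a Pearson r of 0.90, and of 0.84 after the group means were removed. *C1qb* had an r of 0.77 with *C1qc* and of 0.68 with *C1qa*, which fell to 0.59 and 0.24 without the group means. These correlations are descriptions over arrays that share groups, replicate numbers and one scaling. Same-numbered *ΔTrspM* arrays were higher than control arrays for *C1qa* in 1 of 6 pairs, with differences of −0.54 to 0.13, and for *C1qc* in 1 of 6, with differences of −0.33 to 0.17. The mean of the macrophage markers was higher in 0 of the same 6 pairs (−0.25 to −0.01), although its 10 genes did not all go that way. In *ΔTrspM* cells 3 were higher and 7 lower after LPS, and 2 higher and 8 lower without it. *Lyz2* averaged 13.78 against 13.33 in control cells after LPS, and 13.65 against 13.41 without it. By genotype 0 of the 10 passed in limma in either stimulus. The part of the marker mean in the C1q values was not tested.

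*Serping1*, the inhibitor among the 8 genes, was at 7.31, 7.50 and 8.05 on the LPS-stimulated *ΔTrspM* arrays and at 6.70, 6.38 and 7.43 on the unstimulated ones. Among control arrays it was at 7.19, 6.51 and 7.48 with LPS, against 6.58, 6.27 and 7.09 without. Replicate 3 was the highest of each group, and the groups set against each other overlapped in every comparison, but the stimulated array was above the unstimulated one in 3 of 3 same-numbered pairs in each genotype. The LPS response was 0.78 in *ΔTrspM* cells (standard error 0.35, limma adjusted p = 0.17) and passed with the replicate number as a block (adjusted p = 0.016), while with no scaling it was −0.29. The control response was 0.41 (standard error 0.35, adjusted p = 0.50). After scaling, *Serping1* was higher on the *ΔTrspM* array in 6 of 6 same-numbered pairs, by 0.11 to 0.99. In the deposited values only replicate 3 was higher in each stimulus. With LPS, replicates 1 to 3 were at 78.1, 34.8 and 218.9 in *ΔTrspM* cells, against 145.8, 46.1 and 163.9 in control cells. Without LPS they were at 102.8, 57.5 and 218.2, against 110.7, 64.9 and 145.2. The genotype difference was 0.56 after LPS (limma adjusted p = 0.94) and 0.19 in unstimulated cells (adjusted p = 0.99986). With no scaling the difference after LPS was −0.23.

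The mean of a stromal marker list, which holds fibroblast products such as *Postn*, moved with *Serping1*, although its genes did not all do so. All 10 genes were measured, their mean log2 signal was also higher on the *ΔTrspM* array in 6 of 6 pairs (0.24 to 0.77), and the Pearson r of that mean with *Serping1* over the 12 arrays was 0.90, both before and after the group means were removed. By genotype 0 of the 10 passed in limma, with 8 higher and 2 lower in *ΔTrspM* cells in each stimulus. *Pdgfrb*, a receptor of mesenchymal cells, averaged 10.67 on the LPS-stimulated *ΔTrspM* arrays, against 11.34 on the LPS-stimulated control arrays. On the unstimulated arrays *Pdgfrb* averaged 7.68 in *ΔTrspM* and 6.89 in control cells. The mean and the summed signal of the list therefore also carry the rise of *Pdgfrb* with LPS. *Dcn* averaged 6.27 on the unstimulated *ΔTrspM* arrays, against 6.47 on the unstimulated control arrays. The summed signal of the list was 3420 to 10800 on the LPS-stimulated *ΔTrspM* arrays, 1197 to 9326 on the unstimulated *ΔTrspM* arrays, 4792 to 5405 on the LPS-stimulated control arrays and 633 to 8122 on the unstimulated control arrays. At most 1 of the 10 genes was under 16 on any array. The ratio of 3' to 5' signal of the actin control, a sign of RNA quality, was higher in the same 6 pairs (log2 differences of 0.03 to 0.44), and that of *Gapdh* in 2 of 6. The part of other cells or of RNA quality in the *Serping1* values was not tested.

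**Figure D3:**
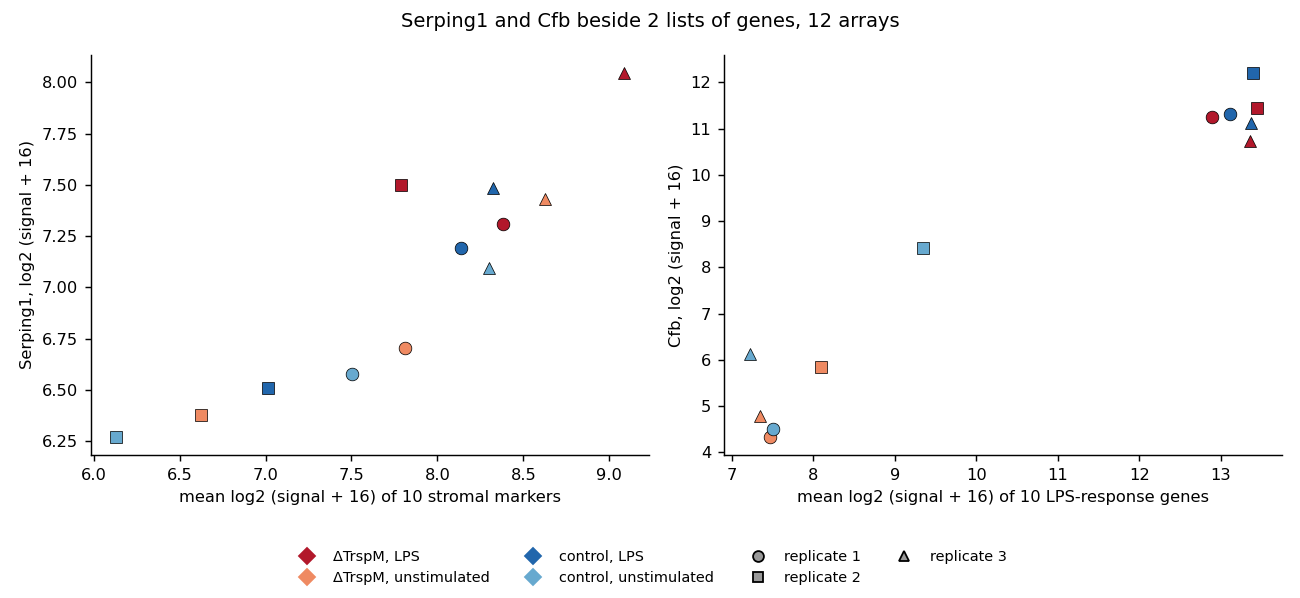
Left, log2 (signal + 16) of *Serping1* against the mean of 10 stromal markers; right, *Cfb* against the mean of 10 LPS response genes, on the 12 arrays (colours give the group, symbols the replicate). *Serping1* and the stromal mean had an r of 0.90 over the 12 arrays, and unstimulated control replicate 2 stood above the other unstimulated arrays on both axes of the right panel.

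Between genotypes, the median log2 fold change of the 8 genes was −0.02 after LPS and −0.15 in unstimulated cells, against 0.04 over all genes in each. By limma, 0 of the 8 passed in LPS-stimulated cells, where 0.011% of all genes did, and 0 of the 8 in unstimulated cells, where 0% did. Over both stimuli 0 of the 8 passed, where 0.022% of all genes did, and for the interaction 0 of the 8, where 0% did. At an unadjusted p under 0.05, 0 of the 8 differed in any of these comparisons, and by the methods' t-test 0 of the 8 differed in either stimulus. Without a block, the 95% intervals for *C1qb*, *C1qc* and *C3ar1* lay between −0.57 and 0.53 in both stimuli, while those for *Cfb* ran from −3.08 to 1.31.

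**Figure D4:**
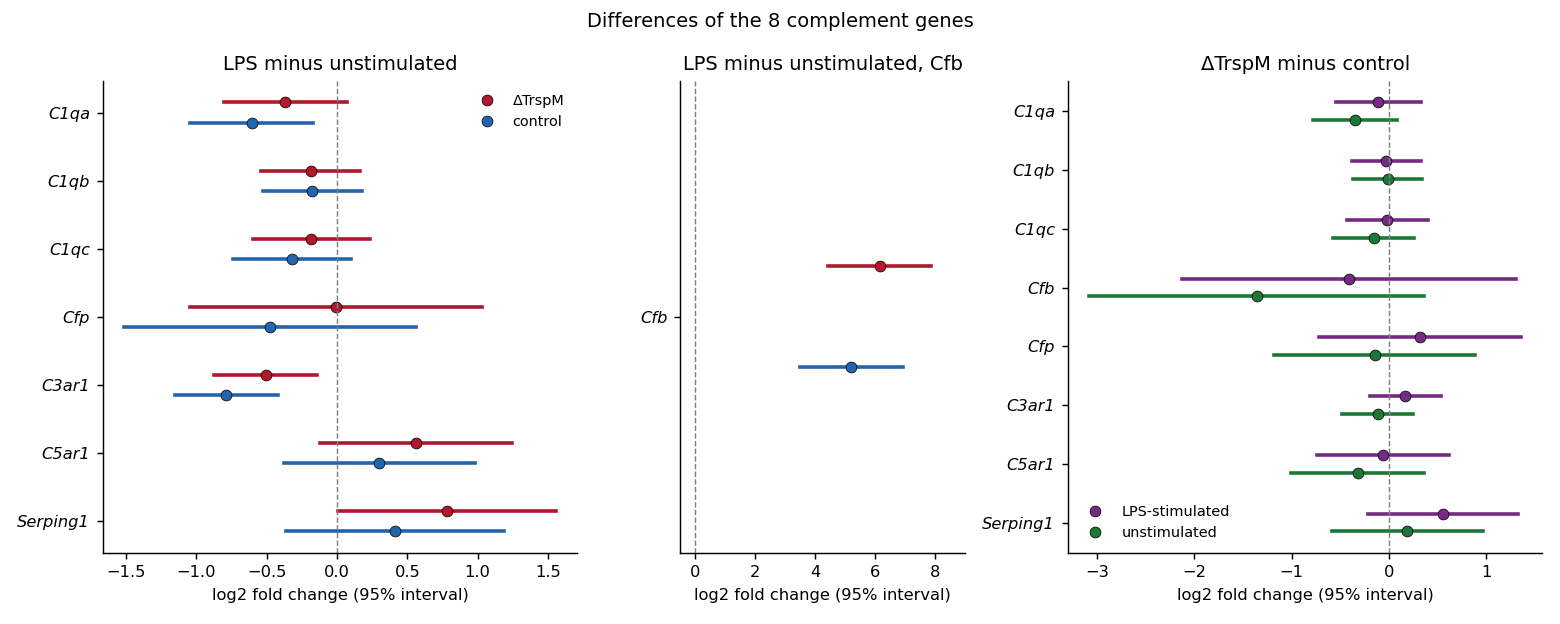
Log2 fold changes of the 8 genes with 95% intervals from limma: left, LPS minus unstimulated in *ΔTrspM* and control cells for 7 genes; middle, the same for *Cfb*; right, *ΔTrspM* minus control after LPS and without it. The *Cfb* responses of 6.15 and 5.20 are far from 0, and each interval for a genotype difference includes 0.

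For each gene, the 2 genes with the most similar pattern over the 12 arrays were sought among 11626 genes whose log2 signal averaged 6 or more, as a description by Pearson r. *Cfb* was most like *Cebpd* and *Fas* (0.99 each), and *C3ar1* most like *Gpr183* (0.99) and *Knop1* (0.98). *Cfb* and *C3ar1* had the smallest adjusted p-values for LPS of the 8, and the LPS groups set most of such an r. *C1qa* was most like *Cd81* (0.94) and *Rai1* (0.91), *C1qb* most like *Syt8* (0.97) and *Orai1* (0.93), and *C1qc* most like *C1qa* (0.90) and *Wbp11* (0.87). *C5ar1* was most like 5031425E22Rik (0.94) and *Pilra* (0.92), and *Cfp* most like *Plod1* (0.90) and *Slc25a33* (0.88). *Serping1* was most like *Cir1* (0.93) and *Col6a2* (0.92), a collagen gene. Among the 8 themselves, *Cfb* and *C3ar1* had an r of −0.88, and *Cfp* and *C5ar1* one of 0.86 after the group means were removed.

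The rest of the complement system was followed with a list of 43 genes, of which 34 were measured. In *ΔTrspM* cells 2 rose and 1 fell after LPS, and in control cells also 2 rose and 1 fell, which is 8.82% of the list in each genotype, against 15.8% of all genes in *ΔTrspM* and 15.6% in control cells. *C1ra*, a protease of the C1 complex and so a target of the C1 inhibitor, rose in both; its close copy *C1rb* was not analysed here. It was at 7.60, 7.90 and 7.26 on the LPS-stimulated *ΔTrspM* arrays, against 6.61, 6.37 and 6.83 on the unstimulated ones, which gave a log2 fold change of 0.98 by limma (standard error 0.23, adjusted p = 0.015). The control arrays were at 7.97, 7.77 and 8.06 with LPS, against 6.27, 6.49 and 6.84 without, which gave 1.40 (standard error 0.23, adjusted p = 0.0019). With no scaling the value was −0.10 in *ΔTrspM* cells and 1.02 in control cells (adjusted p = 0.31), and with median scaling it was 0.74 in *ΔTrspM* cells (adjusted p = 0.058). Its call there was lost without unstimulated *ΔTrspM* replicate 1 or 2 or LPS-stimulated *ΔTrspM* replicate 2 (adjusted p = 0.051 to 0.060).

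*Cd93*, a surface protein once described as a C1q receptor, fell in both genotypes, by 0.82 in *ΔTrspM* cells (limma adjusted p = 0.030) and by 0.89 in control cells (adjusted p = 0.020). *Mbl1*, a mannose-binding lectin, rose by 1.76 in *ΔTrspM* cells (adjusted p = 0.025), while the control cells gave 1.07 (adjusted p = 0.15). Its deposited signals in *ΔTrspM* cells were low, at 101.8, 38.1 and 88.6 with LPS, against 51.4, 37.7 and 14 without. *Cd55*, decay accelerating factor, which has a close relative in *Cd55b*, had an LPS response of 0.42 in *ΔTrspM* cells (adjusted p = 0.33) and rose by 1.05 in control cells (adjusted p = 0.019). None of these genes had an interaction past the threshold (adjusted p = 0.999975 each). These calls depended on the scaling and on single arrays. *Cd93* did not pass with median scaling (−0.73 in *ΔTrspM* cells, adjusted p = 0.11, and −0.56 in control cells, adjusted p = 0.25) or with no scaling (adjusted p = 0.059 and 0.52), nor did *Mbl1* in *ΔTrspM* cells (adjusted p = 0.23) or *Cd55* in control cells (adjusted p = 0.50) with no scaling. In *ΔTrspM* cells, *Cd93* no longer passed without LPS-stimulated replicate 2 or any of the unstimulated replicates (adjusted p = 0.071 to 0.095), and *Mbl1* without LPS-stimulated replicate 1 or 2 or unstimulated replicate 3 (adjusted p = 0.077 to 0.090). In control cells, *Cd93* no longer passed without LPS-stimulated replicate 1 or 2 or unstimulated replicate 1 or 3 (adjusted p = 0.051 to 0.075), and *Cd55* without LPS-stimulated replicate 2 or unstimulated replicate 1 or 3 (adjusted p = 0.065 to 0.079).

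*C1s1*, the partner protease of *C1ra*, was near the floor of the arrays, with group means of 4.55 to 4.81, and its LPS response was −0.02 in *ΔTrspM* and −0.06 in control cells. *Hc*, which encodes C5, was likewise low, with means of 4.69 to 5.26. The complement receptor 3 subunits gave −0.40 in *ΔTrspM* and −0.57 in control cells for *Itgam*, and −0.32 and −0.26 for *Itgb2*, none past the threshold. *C4b* and *C5ar2* were not analysed here.

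*Vsig4*, a receptor of resident macrophages for C3 fragments, had the lowest genotype difference of all 18193 genes after LPS and over both stimuli. Its log2 signal was 8.32, 7.01 and 6.82 on the LPS-stimulated *ΔTrspM* arrays and 8.44, 7.49 and 7.90 on the unstimulated ones. Control arrays were at 9.96, 9.99 and 10.25 with LPS and 10.60, 10.43 and 10.26 without. Every *ΔTrspM* array was below every control array. Over both stimuli the log2 fold change was −2.59 (standard error 0.26, limma adjusted p = 0.0056), and it was the 1 gene of the 34 that passed there. It was −2.68 after LPS (adjusted p = 0.086) and −2.49 in unstimulated cells (adjusted p = 0.13). With all arrays kept it passed after LPS with median scaling (adjusted p = 0.016), no scaling (0.046), a pseudocount of 64 (0.027) and trend and robust options (0.019), and in unstimulated cells with the pseudocount of 64 (0.034) and trend and robust options (0.032). Without LPS-stimulated *ΔTrspM* replicate 1 it passed after LPS (−3.15, adjusted p = 0.0082) and in unstimulated cells (adjusted p = 0.026). Without LPS-stimulated *ΔTrspM* replicate 2 and unstimulated control replicate 2 together, a choice made after the data were seen, the value over both stimuli was −2.49 and the adjusted p 0.075.

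**Figure D5:**
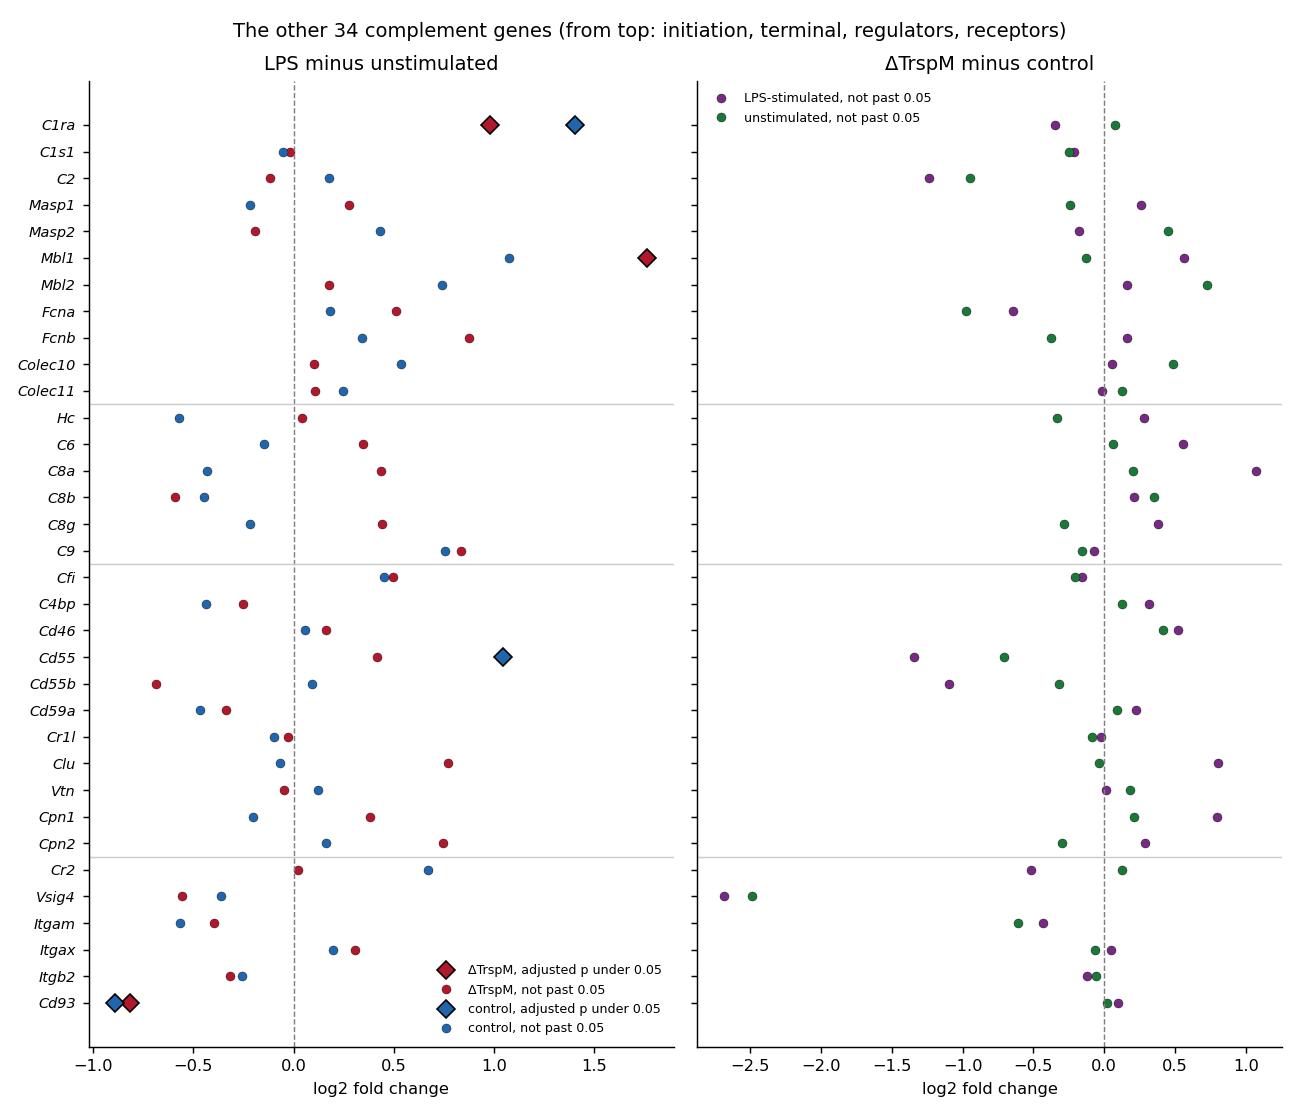
Log2 fold changes of the 34 other complement genes, by role from top to bottom: left, LPS minus unstimulated in *ΔTrspM* and control cells; right, *ΔTrspM* minus control after LPS and without it (diamonds, limma adjusted p under 0.05; circles, not past it). *C1ra* and *Cd93* carry diamonds in both genotypes on the left, and *Vsig4* stands apart on the right at −2.68 and −2.49.

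Of the other genes of the list, 2 are given here because of their values and outside the rule for naming genes. *Cd55* was at 5.72, 5.44 and 5.97 on the LPS-stimulated *ΔTrspM* arrays, against 6.90, 7.46 and 6.79 on the LPS-stimulated control arrays, a difference of −1.34 with no overlap that did not pass (limma adjusted p = 0.27). In that comparison 6 of the 34 genes, *Cd55* among them, were lower in *ΔTrspM* cells without overlap, and 1 was higher. *C2*, which neighbours *Cfb* and encodes its counterpart in the classical pathway, differed between genotypes by −1.24 after LPS (adjusted p = 0.62) and by −0.95 without it (adjusted p = 0.99986), and its LPS response was −0.12 in *ΔTrspM* and 0.18 in control cells. *C2* was near the floor of the arrays in *ΔTrspM* cells, with group means of 4.91 with LPS and 5.03 without, which limits these values. Its means in control cells were 6.15 and 5.97. For *Cfb* the LPS responses were 6.15 in *ΔTrspM* and 5.20 in control cells.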

How the data were processed

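RNA of BMDMs had been hybridized to 12 GeneChip Mouse 430 2.0 arrays. The deposited values are linear signal intensities of 45101 probe sets that the authors had normalized with Expression Console; the sources used here do not give the summarization method. Control probe sets (64) were dropped, and the remaining 45037 were quantile-normalized, increased by 16 and put on the log2 scale. In the platform annotation 34945 of these carried 1 gene symbol, 932 several and 9160 none, and only the first were used, with the brightest probe set taken for each gene (18193 genes). Groups follow the labels, which name every array, and all columns with sample values were used. The 4 groups were fitted together with limma 3.58.1 in R 4.3.3 (8 residual degrees of freedom) with Benjamini-Hochberg adjustment over the 18193 genes. The small number of arrays limits the precision, and an exact two-sided test of 3 against 3 cannot go under 0.1. After group means were removed, same-numbered arrays of the groups compared correlated at 0.126 to 0.442 in 12 of 12 pairs. The replicate numbers, whose meaning the labels leave unstated, were therefore taken to pair the arrays. The main fit ignores this pairing, so its standard errors, intervals and p-values are those of an unpaired design. With the numbers as a block the standard errors of the members were smaller. For the LPS response in *ΔTrspM* cells that of *Serping1* was 0.19 with the block, against 0.35 without it. For *Cfp* it was 0.28, against 0.47. The block fit is given where it changes a call, and for the smallest unadjusted p-values between genotypes. Members and gene lists were chosen with earlier results of these data known. The text names all members, listed complement genes past the threshold and 8 others fixed by name, and for each member the 2 most correlated genes. The alternatives were median scaling, no scaling, a pseudocount of 1 or 64, a filter at a mean log2 signal of 6, other uses of the probe sets, only the arrays compared, trend and robust options, the block, the two-tailed t-test of the study's methods and each array left out. The scripts were tested on simulated data, and no arrays held identical values.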

Additional observations from a re-analysis of the deposited data

How the results depend on the processing

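In each comparison of genotypes and for the interaction, 0 of the 8 complement genes passed under every alternative run. After LPS in *ΔTrspM* cells, 1 passed as reported; 2 passed (*Cfb* and *C3ar1*) with a pseudocount of 64, with a filter at a mean log2 signal of 6, with the mean of probe sets, with trend and robust options and by the methods' t-test, both at an unadjusted p of 0.01 and after adjustment, and 1 to 2 passed when single arrays were left out, the higher count without LPS-stimulated control replicate 2. With the replicate number as a block 3 passed there (*Cfb*, *C3ar1* and *Serping1*), and the block added *C1qa* in control cells and changed no other call of a named gene. More of all genes passed with it too, with 1689 rising and 2397 falling in *ΔTrspM* cells. In control cells 1664 rose and 2444 fell with the block, against 1290 and 1554 as reported. In *ΔTrspM* cells 1428 rose and 1901 fell with a pseudocount of 64, and 1347 and 1789 with trend and robust options. The control counts were 1393 and 1914, and 1353 and 1849. In control cells 2 passed as reported, and 1 passed with median scaling (*Cfb*), with no scaling (*Cfb*) and by the methods' t-test at an unadjusted p of 0.01 (*C3ar1*), 0 by that t-test after adjustment (adjusted p = 0.099 for *Cfb* and 0.052 for *C3ar1*), and 2 to 3 when single arrays were left out, the higher count (with *C1qa*) without LPS-stimulated control replicate 3, and 3 also passed there (with *C1qa*) with a pseudocount of 64, with the filter at 6 and with trend and robust options. With median scaling the LPS response was 0.43 for *C1qb* and 0.34 for *C1qc* in *ΔTrspM* cells, and 0.26 and 0.14 in control cells. With no scaling, which moved the median of all genes to −0.73 for the LPS response in *ΔTrspM* cells, to −0.25 in control cells, to −0.60 for the genotype difference after LPS, to −0.33 for that over both stimuli and to −0.59 for the interaction, the LPS response in *ΔTrspM* cells was −0.44 for *C5ar1*, −0.29 for *Serping1* and −0.10 for *C1ra*. The genotype difference after LPS was then −0.60 for *Cfp*, −0.63 for *C3ar1* and −0.23 for *Serping1*, over both stimuli −0.41, −0.40 and −0.063, and the interaction of *C3ar1* was −0.46. Leaving out single arrays moved the genotype difference of *C5ar1* after LPS between −0.26 and 0.28, the *Cfb* response between 5.83 and 6.58 in *ΔTrspM* and between 4.28 and 6.24 in control cells, and the difference of *Vsig4* over both stimuli between −2.82 and −2.44. A change of sign was counted only where a value was called or exceeded 1 standard error, and 51 of 66 sign changes among 1565 values were within it. Of all genes, 1160 rose and 2207 fell after LPS in *ΔTrspM* cells with median scaling, and 261 and 3073 with no scaling, against 1326 and 1548 as reported. The LPS responses counted 4946 and 4963 probe sets in *ΔTrspM* and control cells when every probe set was tested, 1376 and 824 genes by the adjusted t-test, and 893 genes in control cells with no scaling, against 2874 and 2844 genes as reported. Without unstimulated *ΔTrspM* replicate 1 the first was 1704. The genotype counts ran from 0 to 163 after LPS, the highest by the t-test at an unadjusted p of 0.01, from 0 to 139 in unstimulated cells and from 0 to 6 over both stimuli, and the interaction counted at most 3. The causes of these changes were not tested. Low signals limit *C1s1*, *Hc*, *C2* in *ΔTrspM* cells and unstimulated *Cfb*, which lie near the floor of the scale. The signals of *Mbl1* were also low.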
